A study of Rattus norvegicus with 6 samples.

Results

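The 4 classical deoxyribonuclease (DNase) genes Dnase1l3, Dnase1, Dnase1l1 and Dnase2 were followed in cultured rat bone marrow cells. They were taken by symbol, through the RefSeq transcript accession that the array gives for each probe, and are 4 of the 8899 genes with a symbol on the array. Each has 1 probe matched to its symbol, and all 4 probes passed the filter on dim signal. The members were chosen by values measured here, with the LIPUS minus control change of Dnase1l3 known, so the changes of these 4 genes are given as descriptions, with a standard error (SE) and no test.

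The study placed bone marrow cells of male rats aged 8 weeks under osteogenic conditions, which favour bone formation. The LIPUS group received low-intensity pulsed ultrasound, a mechanical stimulus delivered as short bursts of sound, and the control group received no treatment. RNA was taken on day 10, and each group has 3 single-colour Agilent arrays labelled with Cy3. No strain, transgene or further agent is named in the labels, and they do not say whether replicates came from separate animals or cultures, so p-values measure only the spread between these samples, which may be technical. Bone marrow cultures hold several cell types, and in bulk RNA fewer cells of a type and less RNA per cell cannot be told apart.

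Deoxyribonucleases cut DNA, and the family divides by where each enzyme works. DNase1L3 is secreted, mainly by macrophages and dendritic cells, and can cut DNA that is still wrapped in chromatin or carried in membrane particles; in humans and mice its loss leads to antibodies against DNA. DNase1 is secreted by glands and kidney and prefers naked DNA, DNase1L1 is a family member carried on membranes, and DNase2 is the acid enzyme of the lysosome, which in mouse macrophages digests the DNA of engulfed nuclei and dying cells.

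Between 55.3% and 61.9% of probes lay above background on the LIPUS arrays and between 53.5% and 61.3% on the control arrays, and correlations between arrays were 0.964 to 0.986. In the fit over 21847 entries, each a gene or a probe without a symbol, 817 (3.74%) passed as lower and 632 (2.89%) as higher in LIPUS (limma, Benjamini-Hochberg adjusted p under 0.05), and the median change was 0.03 on the log2 scale. The tilt of the scanned grid put the LIPUS arrays (0.75 to 0.82) with control 3 (0.71), apart from control 1 (1.26) and control 2 (1.29). The labels name no slide, so these sets are inferred. Values within the set that holds both groups, 3 LIPUS arrays and control 3, are given as second-slide values, with no test since control has 1 array there. A fit with the inferred slide as a fixed block gives the same changes. It too sets LIPUS against control 3 alone, and control 1 and control 2 add only to its estimate of spread.

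Levels are log2 values after background correction, relative to the 75th percentile of each array, which stands at 0. Net signal is the spot's median intensity minus its local background, and a probe counted as above background when this exceeded the 95th percentile of the array's negative control spots. Levels of different probes are not comparable, so no order among the 4 genes is given.

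Dnase1l3 (NM_053907) was far lower in LIPUS-treated cells. Its net signal was 481, 501 and 657 on the LIPUS arrays, against 5535, 3834 and 5107 on the control arrays, which averages 546 ± 96.4 in LIPUS and 4825 ± 885 in control (SD, n = 3 each). All values were above the background limit, by 4.76 to 13.2 times in LIPUS and by 34.2 to 51.7 times in control, so the transcript was still measured after treatment. None of its spots held saturated pixels.

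On the scaled log2 scale Dnase1l3 stood at −0.49, −0.19 and 0.02 on the LIPUS arrays, against 2.60, 2.39 and 2.33 on the control arrays. The groups did not overlap, and 2.30 log2 units separated the highest LIPUS array from the lowest control array. Within a group the arrays differed by no more than 0.52 in LIPUS and 0.28 in control. Mean levels were −0.22 ± 0.26 in LIPUS and 2.44 ± 0.14 in control (SD, n = 3 each), a change of −2.66 ± 0.18 (SE; 95% interval −3.07 to −2.25), or 6.32-fold lower in LIPUS. The second-slide change was −2.55.

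**Figure D1:**
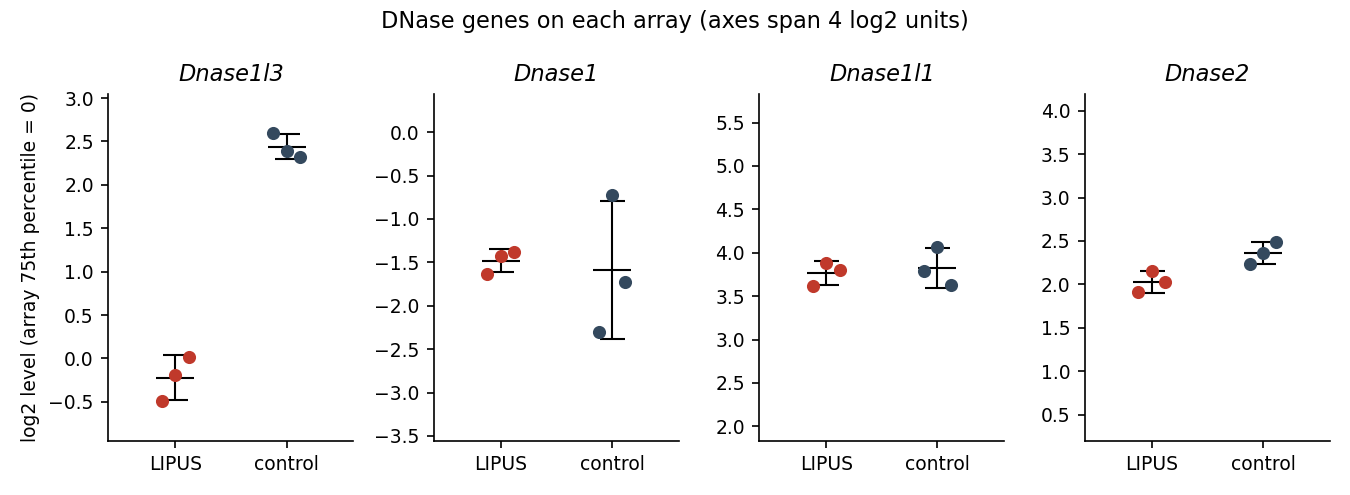
Scaled log2 level (vertical axis, relative to each array's 75th percentile) of Dnase1l3, Dnase1, Dnase1l1 and Dnase2 on each LIPUS and control array; points are arrays and bars show the group mean with the SD (n = 3 each). Dnase1l3 lies between −0.49 and 0.02 in LIPUS and between 2.33 and 2.60 in control, while the groups overlap for Dnase1 and Dnase1l1 and are 0.08 apart for Dnase2.

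The authors' deposited value table, which holds processed values of the same arrays, gave Dnase1l3 as −0.43, −0.08 and 0.19 in LIPUS and 2.56, 2.49 and 2.48 in control. The change there was −2.62 ± 0.19 (SE), and the groups were again apart. Among the 5697 tested genes with a symbol, 1 had a lower change than Dnase1l3 in the spot tables and 19 did in the value table. This place in the order is a description, since the contrast had a part in the choice.

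The stretches of 250 bases upstream of the annotated starts, from RefSeq on build GRCr8, are shown for Dnase1l3 and Dnase1l1, the member with the largest and the member with the smallest change in size. Each is written 5′ to 3′ on the gene's strand, and capitals mark CpG dinucleotides. Dnase1l3 has its window at chr15:19352302-19352551 on the plus strand, and Dnase1l1 at chrX:157216712-157216961 on the minus strand.
Dnase1l3: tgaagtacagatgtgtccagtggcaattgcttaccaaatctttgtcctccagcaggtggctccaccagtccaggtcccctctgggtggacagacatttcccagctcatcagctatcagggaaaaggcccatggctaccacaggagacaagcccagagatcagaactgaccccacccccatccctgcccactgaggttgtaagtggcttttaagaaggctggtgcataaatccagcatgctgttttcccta
Dnase1l1: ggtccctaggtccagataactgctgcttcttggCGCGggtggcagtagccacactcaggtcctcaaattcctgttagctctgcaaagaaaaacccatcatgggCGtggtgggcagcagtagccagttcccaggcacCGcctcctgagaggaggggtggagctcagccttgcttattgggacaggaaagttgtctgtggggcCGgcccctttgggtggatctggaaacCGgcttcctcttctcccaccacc
The Dnase1l3 window holds 0 CpG, as do 7.83% of all 33469 windows of this length, which have a median of 5. The Dnase1l1 window holds 6 CpG and the window of Dnase1 (chr10:12008245-12008494, minus strand) holds 2. GC content was 52.8% for Dnase1l3, 58.8% for Dnase1l1 and 55.2% for Dnase1, against a median of 51.2% over all windows. A window was matched for 3 of the 4 genes, and Dnase2 is named only.

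Motifs were searched by their letters on both strands. None of the 6 searched is present in the Dnase1l3 window, namely TATAAA (the TATA box, in 12.9% of all windows), CCAAT (34%), GGGCGG (the GC box, 30.5%), TGANTCA (the AP-1 site, 6.34%), GGAAGT (the ETS core, 19.2%) and CACGTG (the E-box, 5.59%). The Dnase1l1 window has CCAAT on the opposite strand, its first base 77 bases before the start. The Dnase1 window has CACGTG 160 bases before the start and TATAAA on the opposite strand 230 bases before it. A match is a match of letters, and its absence says only that these letters are not in the window.

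Dnase1 (NM_013097), the secreted enzyme of glands and kidney, was close to background throughout. Its net signal was 157, 152 and 177 in LIPUS and 91, 352 and 193 in control. It was above the background limit on 3 LIPUS arrays and 2 control arrays, since control 1 reached 0.682 times its limit.

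Log2 levels of Dnase1 were −1.63, −1.43 and −1.39 in LIPUS and −2.30, −0.73 and −1.73 in control. The LIPUS arrays fell inside the range of the control arrays, whose spread of 1.57 was set by control 1 at the low end and control 2 at the high end. The means were −1.48 ± 0.13 in LIPUS and −1.59 ± 0.80 in control (SD, n = 3 each), a change of 0.10 ± 0.33 (SE; 95% interval −0.64 to 0.85). The value table had −1.93, −2.62 and −2.63 in LIPUS and −2.20, −1.97 and −2.53 in control, a change of −0.16 ± 0.26. Its values on LIPUS 2 and control 3 equal the medians of their whole columns (−2.62 and −2.53). They may be a floor shared by dim probes, so this change is a weak estimate. The change was −0.25 without control 1, 0.53 without control 2 and 0.25 within the second slide, so its direction was not fixed by these arrays.

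Dnase1l1 (NM_001014223), which encodes the membrane-associated family member, gave a strong signal on every array. Its net signal was 10128, 10125 and 10512 in LIPUS and 12701, 12553 and 12735 in control. These unscaled values did not overlap, whereas the scaled log2 levels did, at 3.61, 3.89 and 3.81 in LIPUS and 3.78, 4.07 and 3.62 in control.

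Mean levels of Dnase1l1 were 3.77 ± 0.14 in LIPUS and 3.83 ± 0.23 in control (SD, n = 3 each). The change was −0.06 ± 0.18 (SE), and its 95% interval of −0.46 to 0.34 leaves room for a modest change either way. Within the second slide it was 0.14, and in the value table −0.03 ± 0.18. The value-table levels were 3.83, 4.06 and 3.92 in LIPUS and 3.89, 4.24 and 3.76 in control, again overlapping.

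Dnase2 (NM_138539), the lysosomal enzyme, was slightly lower in LIPUS. Its net signal was 3032, 2979 and 2973 in LIPUS and 4271, 3779 and 5744 in control, and its log2 levels were 1.91, 2.16 and 2.02 in LIPUS and 2.23, 2.37 and 2.49 in control. The groups did not overlap, but the gap between them was 0.08, smaller than the 0.25 spanned by the LIPUS arrays or the 0.26 spanned by the control arrays.

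The means of Dnase2 were 2.03 ± 0.12 in LIPUS and 2.36 ± 0.13 in control (SD, n = 3 each), a change of −0.33 ± 0.16 (SE; 95% interval −0.70 to 0.03), or 1.26-fold lower in LIPUS. In the value table it stood at 2.36, 2.28 and 2.28 in LIPUS and 2.41, 2.41 and 2.62 in control, with a change of −0.17 ± 0.14. The second-slide change was −0.46. Its size thus ranged from −0.17 to −0.46 over these 3 estimates, all below 0.

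The groups were apart for 2 of the 4 genes, Dnase1l3 and Dnase2, both lower in LIPUS. Over all 21847 genes and probes tested, 27.2% had groups apart, 12.7% lower in LIPUS and 14.4% higher. Across the 6 arrays, which share their scaling, the level of Dnase1l3 correlated at 0.84 with Dnase2, 0.23 with Dnase1l1 and −0.13 with Dnase1. With the group means taken out, the values were −0.01 for Dnase2, 0.37 for Dnase1l1 and −0.16 for Dnase1, so the likeness to Dnase2 lay in the difference between the groups and not among the arrays within a group.

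**Figure D2:**
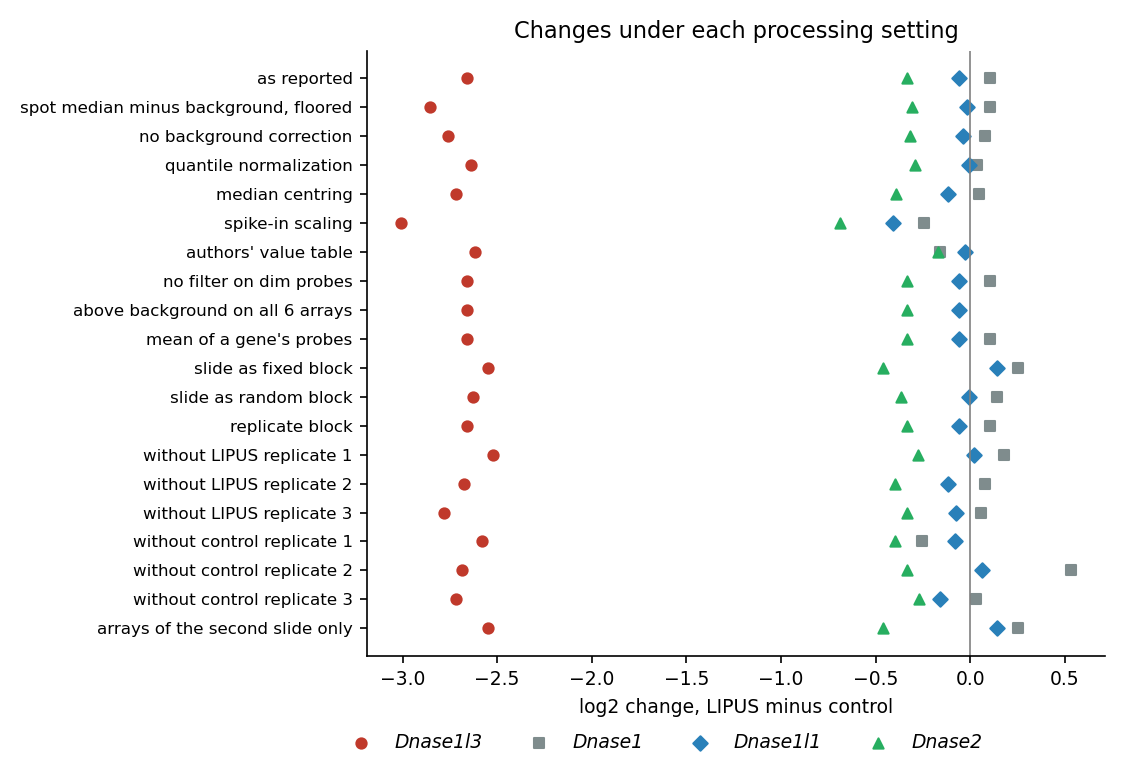
Log2 change (LIPUS minus control, horizontal axis) of Dnase1l3, Dnase1, Dnase1l1 and Dnase2 under each processing setting, drawn as points without error bars. Dnase1l3 stays between −3.01 and −2.52 and Dnase2 between −0.69 and −0.17, while Dnase1 and Dnase1l1 fall on both sides of 0.

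Scaling to the 5 spike-in probes, RNAs added in known amounts, shifted the median of all genes by −0.35. Under it Dnase1l3 changed by −3.01, Dnase2 by −0.69, Dnase1l1 by −0.41 and Dnase1 by −0.25, so Dnase1 turned below 0. Relative to that shift each change was as given above.

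The genes whose level followed Dnase1l3 most closely over the 6 arrays were ranked by Pearson correlation among 5694 other named genes. Those at the top included Procr, Prkcb, Nell2, Pycard, Anxa3, Cd200r1, Ctsc, Fbl and Osbpl1a, with r between 0.993 and 0.997. A difference between the groups is enough for a high r here, since 401 genes had r above 0.9 and 204 had r above 0.95. With the group means taken out, r was 0.55 to 0.94 for these 9. The ranking over the 6 arrays also favours genes with a high value here.

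Nell2, a secreted glycoprotein, had a value of 0.94. It stood at −1.52, −1.17 and −0.96 in LIPUS and 0.36, 0.31 and 0.26 in control, and like Dnase1l3 was lowest on LIPUS 1 and highest on control 1.

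The other genes named from that ranking also read lower in LIPUS, each by less than Dnase1l3. Their choice by correlation with Dnase1l3 fixed this direction, so it is a description and no separate result. Prkcb, a protein kinase C, changed by −1.82 ± 0.16 (SE). Pycard, the adaptor of the inflammasome, changed by −1.45 ± 0.16, and Cd200r1, an inhibitory receptor, by −1.31 ± 0.16. Ctsc, a lysosomal peptidase that activates the serine proteases of granules, changed by −0.75 ± 0.15. Anxa3, an annexin, read −1.55 ± 0.16, Osbpl1a, a sterol-binding protein, −0.90 ± 0.15, Procr, the protein C receptor, −0.86 ± 0.15, and Fbl, a nucleolar methyltransferase, −0.50 ± 0.15.

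**Figure D3:**
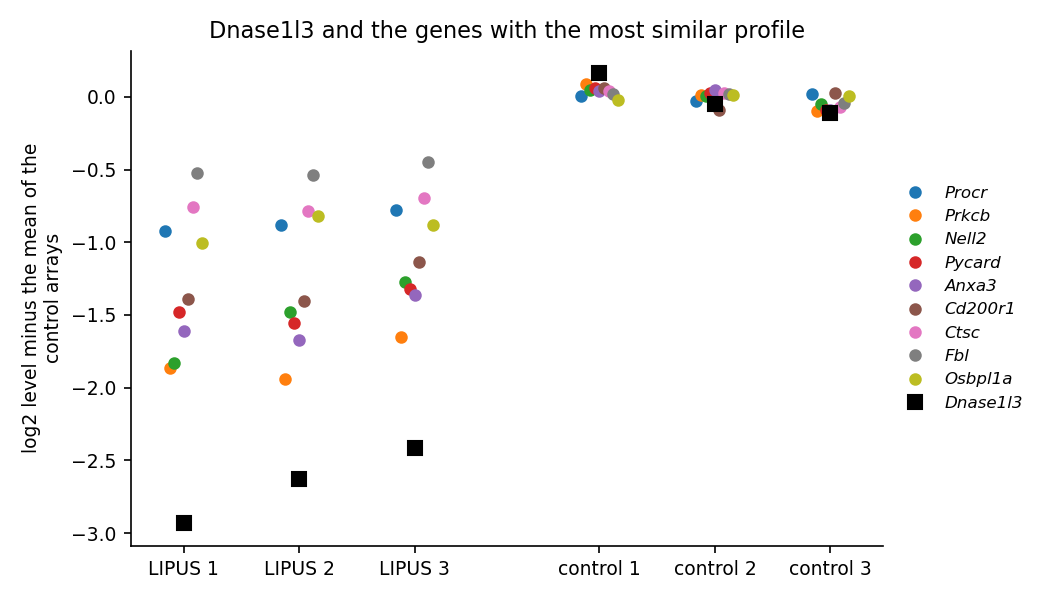
Log2 level minus the mean of the control arrays (vertical axis) on each LIPUS and control array, for Dnase1l3 (black squares) and 9 of the named genes most correlated with it (coloured circles). All 10 lie below 0 on every LIPUS array, with Dnase1l3 the lowest on each. The 9 were chosen by that correlation, so their place below 0 is no separate result.

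Enzymes that cut DNA in other settings, and their inhibitors, were listed as 22 further genes. Of these 12 have a probe with a symbol, and 10 were measured. Dnase2b, the DNase of the eye lens, and Dffb, the caspase-activated DNase, were not above background on enough arrays. Limma called 0 of the 10 in either direction (adjusted p from 0.0967 to 0.862; 1 at an unadjusted p under 0.05), beside 6.63% of all genes and probes tested (3.74% lower and 2.89% higher), and their median change was −0.13. Dnase1l2, Trex1, Trex2, Samhd1 and Pld4 are among those not analysed here.

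The lowest of these changes was that of Fen1, the flap endonuclease of DNA replication, at −0.50 ± 0.16 (SE; limma adjusted p = 0.0967). Its other probe read 0.17, in the opposite direction. Dffa, the inhibitor of Dffb, read −0.26 ± 0.22 with an opposite value of 0.23 on its other probe. Endog, a mitochondrial nuclease, read −0.07 ± 0.20, and Pld3, a lysosomal exonuclease, −0.16 ± 0.17.

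The other 6 measured genes of this list were on both sides of 0. Apex2, above background on 3 LIPUS and 2 control arrays, read 0.43 ± 0.22, Mus81 0.40 ± 0.22 and Nme1 0.31 ± 0.16, while Mre11 read −0.26 ± 0.28, Apex1 −0.19 ± 0.17 and Xrcc1, a scaffold of strand-break repair, −0.10 ± 0.16 (SE). The limma adjusted p of these 6 was between 0.287 and 0.759. Nme1 was at the scanner limit on 1 array. None of the 10 reached a size near that of Dnase1l3.

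**Figure D4:**
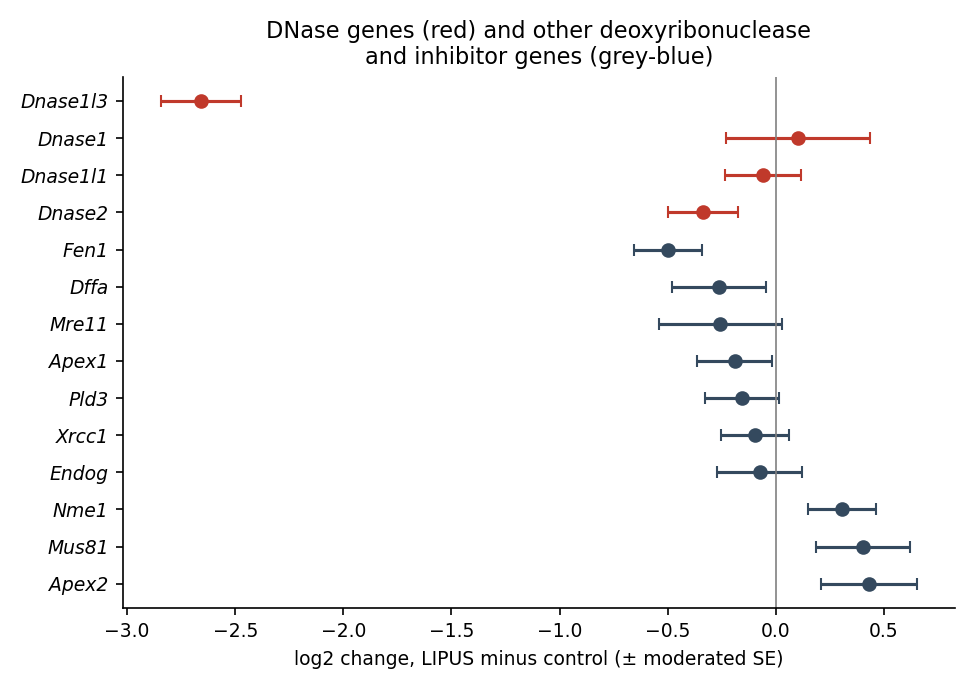
Log2 change (LIPUS minus control, horizontal axis) with the SE for the 4 DNase genes and the 10 measured genes of the list of other deoxyribonucleases and their inhibitors. Dnase1l3 lies at −2.66, and the other 13 genes lie between −0.50 and 0.43.

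The 6 lists of related function, without the 4 DNase genes, name 120 genes, of which 71 were measured. Limma called 4 of these, 1 higher and 3 lower, which is 5.63% beside 6.63% of all tested, and their median change was −0.13 beside 0.03. With the inferred slide as a fixed block, where control 3 is the only control compared, all 4 calls were lost (adjusted p from 0.0589 to 0.160). Quantile normalization ended that of C1qc (0.0504), and the value table those of Ctsz (0.106) and Rnase10 (0.161).

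Genes that act where DNase1L3 meets its substrate, in the breakdown of chromatin in dying cells, had no call among 15 measured (4 at an unadjusted p under 0.05; median −0.22). Casp6, a caspase that cleaves nuclear lamins, read −0.62 ± 0.25 (SE; limma adjusted p = 0.182). Parp1, a caspase substrate, read −0.42 ± 0.15 (adjusted p = 0.133), and Bcl2l1, an inhibitor of apoptosis, −0.28 ± 0.16.

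Genes that sense undigested DNA or respond to it had no call among 9 measured (limma, 0 at an unadjusted p under 0.05). Of 20 listed, 11 had a probe with a symbol, and Cgas, Sting1, Tbk1 and Zbp1 were among those without. Ifit3 and Mx1 were not above background on enough arrays, so much of this response was not measured. Oas1a and Cxcl10, both induced by interferon, read 0.45 ± 0.21 and −0.51 ± 0.25 (SE). Myd88, an adaptor of Toll-like receptors, read −0.33 ± 0.18, and Ifit2, another interferon target, −0.20 ± 0.18. The sources of values differed for Aim2, a sensor of cytosolic DNA, which read −0.16 in the spot tables (limma adjusted p = 0.624) and −1.69 in the value table (adjusted p = 0.0177).

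Clearance of dying cells had 1 call among 11 measured. Of these, C1qb was at the scanner limit on 6 arrays and C1qa on 5, so the spot tables cannot show their change. The value table called 2 of the 11 lower, C1qc and C1qa, the latter at −1.19 (limma adjusted p = 0.0238). C1qc, a chain of complement C1q, stood at 4.54, 4.33 and 4.85 in LIPUS and 5.70, 5.43 and 5.93 in control, and fell by 1.12 ± 0.20 on the log2 scale (SE; limma adjusted p = 0.0107), with −1.21 on its other probe. Mfge8, a bridge to phosphatidylserine, read 0.57 ± 0.16 (adjusted p = 0.0725), Axl, a receptor of the same process, −0.65 ± 0.26, and Cd93 −0.46 ± 0.16. Tyro3, also a receptor, was above background on 0 LIPUS and 3 control arrays, so it passed the filter through the control arrays alone and no change is given.

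Among 21 measured lysosomal hydrolases, the compartment of DNase2, 1 rose and 1 fell. Smpd1, acid sphingomyelinase, stood at 6.23, 6.25 and 6.21 in LIPUS and 5.63, 5.54 and 5.47 in control, a rise of 0.68 ± 0.15 (SE; limma adjusted p = 0.0268), and read 0.33 under spike-in scaling (adjusted p = 0.315). Ctsz, a cathepsin, stood at 2.46, 2.45 and 2.65 in LIPUS and 3.10, 3.20 and 3.18 in control and fell by 0.64 ± 0.15 (adjusted p = 0.0389). Both calls were lost when any array other than control 3 was left out (adjusted p up to 0.0952 for Smpd1 and 0.134 for Ctsz). Lipa, the acid lipase, read −0.65 ± 0.17 (adjusted p = 0.0552), Lgmn, an asparaginyl protease, −0.56 ± 0.16 (adjusted p = 0.0676) and Ppt1, a thioesterase, −0.44 ± 0.16.

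Of the 7 measured ribonucleases, which cut RNA, 1 fell. Rnase10 stood at −1.71, −1.66 and −2.02 in LIPUS and −0.90, −0.92 and −0.96 in control and fell by 0.87 ± 0.17 (SE; limma adjusted p = 0.0139), a call lost without LIPUS 3 (adjusted p = 0.0606) or without control 1 (0.0584). Rnaseh2a and Rnaseh2b, subunits of an enzyme that cuts RNA in RNA-DNA hybrids, read −0.71 ± 0.20 and −0.49 ± 0.19. Rnase4, a secreted ribonuclease, read 0.50 ± 0.17 (adjusted p = 0.125), and 0.77 on its other probe (adjusted p = 0.0466).

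Markers of macrophages, a main source of DNase1L3, moved with it. Of 16 listed, 12 were measured, of which 7 fell in LIPUS, beside 3.74% of all genes and probes tested. The median change was −0.93 over the 12 and −1.32 over the 9 never at the scanner limit, beside 0.03 over all tested. Clec10a, a lectin, stood at 3.06, 2.75 and 3.21 in LIPUS and 6.09, 6.10 and 5.82 in control and fell by 2.99 ± 0.18 on the log2 scale (SE; limma adjusted p = 2.2e-04). The change was −2.43 ± 0.20 for Fcgr2b, the inhibitory Fc receptor, −1.58 ± 0.16 for Fcgr3a, an activating one, and −1.54 ± 0.16 for Aif1, an actin-binding protein of macrophages (limma adjusted p from 4.1e-04 to 0.00105).

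Mpeg1, named here after its value was seen, was above background on 3 LIPUS and 0 control arrays, so it passed the filter through the LIPUS arrays alone and is counted in neither direction. It read 0.03 in the value table, and the medians above include it. C1qb was at the scanner limit on all 6 arrays, C1qa on 5 and Cd68 on 3, so the spot tables cannot show their change. In the value table C1qa changed by −1.19 and Cd68 by −0.95 (limma adjusted p = 0.0238 and 0.0230), and Cd14 and Csf1r, lower in the spot tables, were not called (0.0538 and 0.0537). With the inferred slide as a fixed block, 6 of the 7 falls were still called, and leaving out LIPUS 1, LIPUS 2, LIPUS 3 or control 1 left 5 or 6. Within the second slide, which has 1 control array and so no spread among controls, the median of the 12 was −1.16. The fixed block gave the same median, since its changes also rest on that control array alone.

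Summed over the 12 macrophage markers, the linear level, in multiples of the 75th percentile, was 274 to 299 in LIPUS and 336 to 415 in control. Over the 9 never at the scanner limit it was 40.3 to 48.9 in LIPUS and 148 to 163 in control. The part of macrophage content in the lower Dnase1l3 was not tested. Dnase2 changed by −0.33, and its relation to macrophage content was not tested either.

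Dendritic cells are the other known source. Of 10 listed markers, 2 were measured, Cd74 at −0.47 ± 0.19 and Batf3 at 0.23 ± 0.17 (SE), and limma called 0 (1 at an unadjusted p under 0.05). Their summed level was 3.20 to 4.30 in LIPUS and 4.52 to 4.69 in control, and Ccr7 was not above background. Their part in the lower Dnase1l3 was not tested.

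Endothelial markers were lower as well, 3 of the 4 measured of 12 listed, beside 3.74% of all genes and probes tested. The changes were −1.80 ± 0.22 for Esam, an adhesion molecule, −1.23 ± 0.20 for Ramp2, a receptor partner above background on 2 LIPUS and 3 control arrays, and −1.05 ± 0.19 for Icam2, another adhesion molecule (SE; limma adjusted p from 0.00187 to 0.0127), while Kdr, a receptor for VEGF, read −0.60 ± 0.19 (adjusted p = 0.0952). Their summed level was 2.16 to 2.63 in LIPUS and 5.72 to 6.32 in control, and the defining markers Pecam1 and Emcn were not above background. The value table called 1 of the 4. With the slide as a fixed block, where control 3 is the only control compared, 1 of the 3 calls was kept. Without LIPUS 1 the call of Icam2 was lost (adjusted p = 0.0555). Their part in the lower Dnase1l3 was not tested.

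Markers of the bone lineage went the other way. Of 9 osteoblast markers measured of 11 listed, 4 rose, among them Panx3, a channel protein, by 1.88 ± 0.17 and Dmp1, a matrix protein of osteocytes, by 1.59 ± 0.15, with Phex, an endopeptidase of bone cells, at 1.29 ± 0.20 (SE; limma adjusted p from 6.1e-04 to 0.00573). Mepe, a matrix protein at the scanner limit on 3 arrays, was at least 1.73-fold higher in LIPUS (adjusted p = 0.0259). These 4 calls stand beside 2.89% of all genes and probes tested called higher. With the slide as a fixed block, where control 3 is the only control compared, 2 of the 4 calls were kept. Their summed level was 333 to 394 in LIPUS and 231 to 284 in control, with Spp1 and Bglap at the scanner limit on all arrays. Over the 6 never at the limit it was 98.7 to 109.7 in LIPUS and 58.8 to 62.3 in control. The value table called 6 of the 9 higher, with a median change of 1.74 against 0.53 in the spot tables, and there Spp1 read 2.07 and Bglap 1.97 (limma adjusted p = 0.0102 and 0.0134). Their part in the lower Dnase1l3 was not tested.

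The remaining marker lists were thin. Osteoclast markers had 3 of 10 measured and 0 called (0 at an unadjusted p under 0.05; limma), with summed levels of 26.0 to 29.6 in LIPUS and 21.7 to 27.9 in control, and Calcr, Mmp9 and Ocstamp were not above background. Of 8 neutrophil markers S100a8 alone was measured, and it rose by 0.99 ± 0.20 (SE; limma adjusted p = 0.0209, and 0.159 with the slide as a fixed block), with linear levels of 1.16 to 1.78 in LIPUS and 0.641 to 0.875 in control, while S100a9 and Cxcr2 were not above background. No B-cell marker was measured, and Cd79b was not above background. The part of these cells in the lower Dnase1l3 was not tested.

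**Figure D5:**
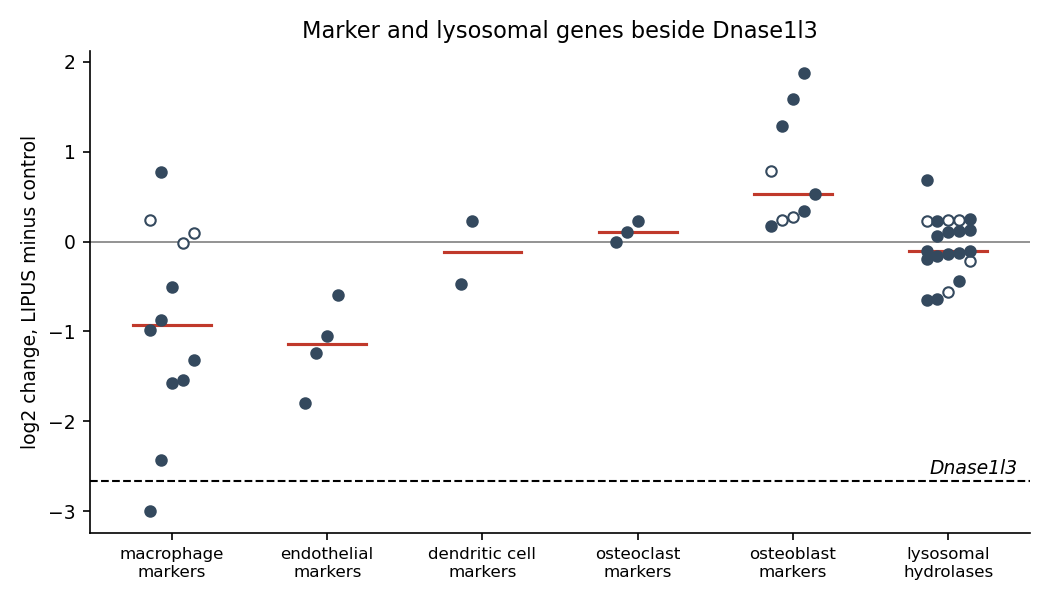
Log2 change (LIPUS minus control) of each measured macrophage, endothelial, dendritic cell, osteoclast and osteoblast marker, with the measured lysosomal hydrolases in the last column. The neutrophil marker S100a8 is not drawn. Red bars are list medians, open circles are probes at the scanner limit on at least 1 array, and the dashed line is Dnase1l3 at −2.66, which only the macrophage marker Clec10a passes, at −2.99.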

How the data were processed

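The 6 arrays, 3 LIPUS and 3 control, were grouped by the labels. Per the file headers, the deposited spot tables give spot and background brightness as intensity, up to the scanner limit of 65535, the share of saturated pixels in percent, and a flag and grid position as a score, all without normalization. The value table deposited by the authors is on a log2 scale, found from its values; how they made it is not given in the sources used here. It correlated at 0.956 to 0.977 with the spot tables, with column medians of −2.49, −2.62 and −2.83 in LIPUS and −2.37, −2.49 and −2.53 in control. It served as an alternative.

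Spot medians were corrected with normexp (offset 50) in limma 3.58.1 (R 4.3.3), put on the log2 scale and averaged per probe, and each array's 75th percentile was subtracted. Probes above the 95th percentile of 153 negative control spots on at least 3 arrays were kept (23260 of 41012). Of 11145 probes with a curated RefSeq accession 10692 took a symbol from RefSeq (GRCr8), and of 4793 predicted ones 76. Each gene was read from its brightest probe by mean level, and probes without a symbol on their own, which left 21847 tested. LIPUS and control were compared by lmFit and eBayes, two-sided, with Benjamini-Hochberg adjustment over all of them. The number of arrays limits the precision.

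The genes and lists were chosen with earlier results of these data known. Named were the DNase genes, every measured other deoxyribonuclease, up to 5 genes of each other list and 4 of each marker list by smallest unadjusted p, and the 10 genes most correlated with Dnase1l3. Some genes that this rule names are not reported here. The code was tested on simulated data. Plots used matplotlib 3.10.9 in Python 3.11.15.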

Additional observations from a re-analysis of the deposited data

How the results depend on the processing

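Dnase1l3 stayed below 0 under all 19 alternatives (−3.01 to −2.52) and Dnase2 under all 19 (−0.69 to −0.17), while Dnase1l1 was below 0 under 15 of 19 and Dnase1 under 3 of 18, since it has no value when a probe must be above background on all 6 arrays. Not all of these alternatives could move a change. Each gene has 1 matched probe, so the filter settings and the mean over probes leave its change as it was. So does the replicate number as a block, since the numbers are balanced over the groups. The fixed slide block and the second slide alone are the same estimate. Leaving out 1 array at a time gave −2.78 to −2.52 for Dnase1l3, −0.25 to 0.53 for Dnase1, −0.16 to 0.06 for Dnase1l1 and −0.40 to −0.27 for Dnase2. Spike-in scaling gave −3.01 for Dnase1l3, −0.41 for Dnase1l1 and −0.69 for Dnase2. The inferred slide as a fixed block, and the second slide alone, an alternative chosen after seeing the data, gave 0.14 for Dnase1l1 and −0.46 for Dnase2, and the value table gave −0.17 for Dnase2. The causes were not tested.

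Limma called 1449 genes and probes, against 612 with floored background subtraction, 3719 with spike-in scaling, 809 in the value table, 655 without a filter (more probes tested), 282 with the slide as a fixed block, 0 within the second slide (3339 at an unadjusted p under 0.05, with 1 control array that is assumed to vary like the LIPUS arrays, so this is no check of stability) and 642 to 2168 with 1 array left out. The highest, 2168, was without control 3, and leaving out any other array gave at most 792. The split of 632 higher and 817 lower became 472 and 990 with median centring and 197 and 3522 with spike-in scaling. Of the related genes 4 were called, against 1 with floored subtraction, 19 with spike-in scaling, 1 without a filter, 9 with all 6 arrays above background, 0 with the slide as a fixed block (14 at an unadjusted p under 0.05), 0 within the second slide (10 unadjusted) and 1 to 7 with 1 array left out. Of the related lists, spike-in scaling called 1 of the 10 other deoxyribonucleases.

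Arrays of the same replicate number did not deviate together (correlations of −0.01 to 0.01), so no pairing by number was seen. This cannot tell whether samples of the same number share an animal or culture. With the replicate number as a block 1175 genes and probes and 2 related genes were called. The numbers are balanced over the groups, so this block could alter the SE but not the changes. These were therefore −2.66 for Dnase1l3, 0.10 for Dnase1, −0.06 for Dnase1l1 and −0.33 for Dnase2, as without it.

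Signal over background limits Dnase1, and the scanner limit hides the change of 3 related genes on all arrays.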
